A study of Homo sapiens with 24 samples.

Results

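HH is a human cutaneous T-cell lymphoma line and TLOm1 a human adult T-cell leukemia line, and their untreated libraries were set against each other across all genes. The members are defined by their labels, as every untreated library of either line, 2 of HH and 2 of TLOm1. They make 4 of the 24 RNA-seq libraries of the series. The comparison itself was chosen with earlier results of these data known. Each line has 1 untreated library with the title prefix OLC and 1 with the prefix OC, and the prefix entered the fit as a block. The other libraries hold cells given azacitidine (AZA) or decitabine, cytidine analogs that inhibit DNA methylation, for 96 h with drug added every 24 h, and cells of another line, PF382, which comes from T-cell acute lymphoblastic leukemia. The 10 treated libraries, 5 of HH and 5 of TLOm1 at the conditions that both lines received (AZA at 125 and 250 nM, decitabine at 5, 12.5 and 25 nM), served to show whether a difference between the lines was also present in libraries the untreated comparison did not use. All cells grew in logarithmic phase. Whether libraries of a line came from separate cultures is not stated in the labels, and the spread behind each p value may then be technical. Each line is a single cell line and stands for no other case of its disease.

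Mature T cells recognize antigen through a T-cell receptor that signals through the CD3 chains, the kinases LCK and ZAP70 and further adaptors, which leads to NF-kappaB. Their growth is driven by interleukins, whose receptors act through JAK kinases and STAT transcription factors. Cutaneous T-cell lymphoma and adult T-cell leukemia both arise from mature CD4+ T cells, and the second is known for high surface CD25, the product of IL2RA, and for CCR4 and CCR8.

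The depth was similar over the 4 untreated libraries, at 20120797 to 24608889 total counts for 25559 genes, and ran between 17903403 and 32496676 in the 10 treated ones. Levels are given as CPM, the count per 1000000 counts of a library, in the order OLC then OC within a line. A count of 0 in the smallest untreated library allows up to 3 counts, or 0.149 CPM, which covers counting error only. CPM is not scaled to gene length, so levels are compared between libraries and not between genes. Libraries of 1 line were not repeats of 1 library, since the chi-square of their counts over genes, divided by its degrees of freedom, was 36.1 in HH and 25.8 in TLOm1. Some libraries held a low level of genes that belong to another line. For 21 genes at 50 CPM or more in TLOm1 and at a median under 0.3 CPM in treated HH, the OLC library of HH held 0.195% of the TLOm1 level and its OC library 0.0321%. For 43 such genes of PF382, the OLC library of TLOm1 held 0.192% of the PF382 level and its OC library 0.0256%, and HH held 0.0106% of it in OLC and 0.0244% in OC. For 3 such genes of HH, TLOm1 had no count in OLC and 0.0106% in OC. A level of that size in a line that is otherwise silent is given below as measured, and its source was not tested.

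Both lines expressed mature T-cell markers, but not the same ones. The 10 markers summed to 1874 and 1892 CPM in HH, against 1969 and 1965 CPM in TLOm1, with CD4 at 563 and 520 CPM in HH and at 959 and 838 CPM in TLOm1. Of the 10, CD3D, CD3G and CD5 were under 1 CPM in both TLOm1 libraries, against 17.3 CPM or more in HH. Among these markers the kinase LCK was nearly absent from both lines, with 0 and 0.248 CPM in HH and 1.34 and 0 CPM in TLOm1, while PF382 had 748 and 589 CPM. CD7, a surface antigen of most T cells, was under 0.3 CPM in all 4 libraries. Markers of other cells were low. B-cell markers summed to 2.02 and 2.24 CPM in HH, against 6.14 and 8.33 CPM in TLOm1, myeloid markers to 4.89 and 3.88 CPM, against 2.93 and 2.41 CPM, and natural killer markers to 8.43 and 10.6 CPM, against 5.12 and 2.92 CPM. Immature thymocyte markers stayed at 0.206 and 0.298 CPM in HH and at 1.99 and 0.694 CPM in TLOm1. Fibroblast and endothelial markers summed to 0.946 and 0.845 CPM in HH and to 115 and 132 CPM in TLOm1. That sum rested on PDGFRB, a growth factor receptor, and PECAM1, an adhesion molecule, since 8 of the 10 markers were under 1 CPM in all 4 libraries and 3 of them at 0. Epithelial markers summed to 51.1 and 46.3 CPM in HH and to 80.7 and 119 CPM in TLOm1, through KRT7, a keratin, in both lines and CDH1, the adhesion molecule E-cadherin, in TLOm1. Fewer cells of a type and less RNA per cell cannot be told apart in these bulk libraries.

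The lines differed in most expressed genes. Of 14330 genes tested, 4743 were higher in HH (33.1%) and 4701 higher in TLOm1 (32.8%), so that 65.9% passed the adjusted p threshold of 0.05. At least 2-fold differences that passed made up 34.5% of the genes, 2387 higher in HH (16.7%) and 2564 higher in TLOm1 (17.9%), and 8-fold ones counted 735 in HH and 989 in TLOm1. The median log2 fold change of HH over TLOm1 was 0.00 and the median absolute value 0.64, with a median SE of 0.14. Of the 9444 genes called, 9443 had the same sign in the OLC pair and in the OC pair, and in 8999 both libraries of 1 line lay above both of the other, which held for 74.9% of all tested genes. Every count or share of a gene list below has to be read against these backgrounds. With 2 libraries per line and the block, 1 residual degree of freedom per gene was left, and the spread was borrowed across genes.

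Most differences were also present in the treated libraries. In the 5 treated pairs, 5501 genes were higher in HH (38.1%) and 5458 higher in TLOm1 (37.8%), or 75.8% of the 14455 tested. Of the 9291 genes called without drug that could be tested with drug, 9176 kept their direction and 8683 were called in the same direction, while 17 were called in the opposite one. Those 8683 genes are 91.9% of the genes called without drug and 79.2% of the 10959 called with drug. For differences of at least 2-fold, 4683 of 4798 were called in the same direction and 6 in the opposite one. The 5 doses of a line are not independent cultures.

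**Figure D1:**
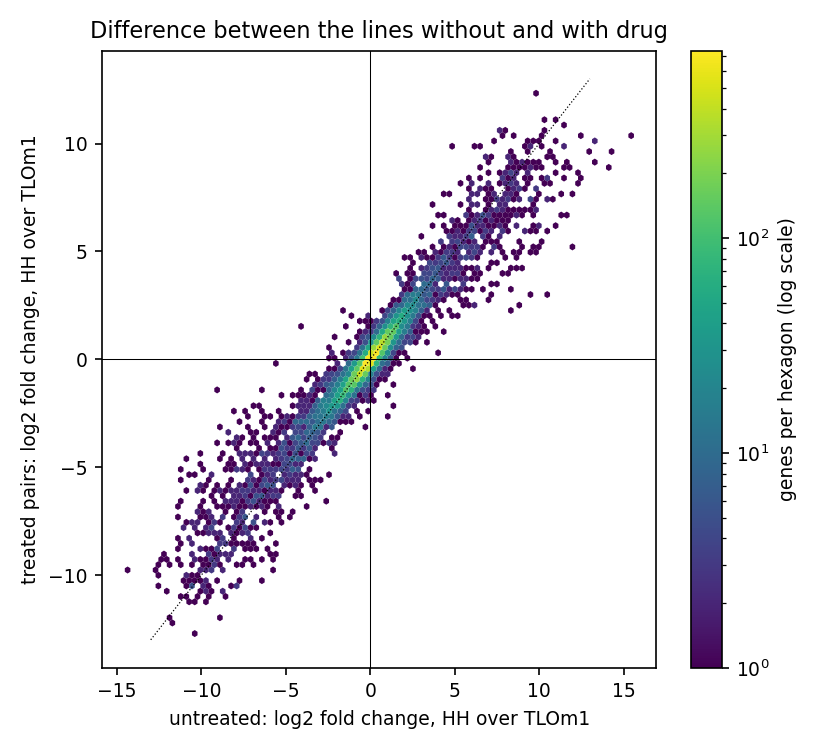
Log2 fold change of HH over TLOm1 in the 2 untreated pairs (x axis) against that in the 5 treated pairs (y axis), with genes counted per hexagon on a log colour scale and the dotted line marking equal values. The 14067 genes tested in both lie along the line of equal values (Pearson r = 0.960 over genes, which are not independent replicates), with few genes where the signs differ.

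The genes that stood furthest toward HH were expressed there and had no or next to no counts in TLOm1. MAOB, the mitochondrial monoamine oxidase B, had 250 and 237 CPM in HH, against no count in TLOm1. Both HH libraries were far above both TLOm1 libraries, at least 3758-fold (adjusted p = 2.53e-12). HAND1, a basic helix-loop-helix factor of heart and extraembryonic development, reached 1161 and 1175 CPM in HH and 0.122 and 0 CPM in TLOm1, 3 counts in all, a ratio of 17984 with a 95% counting interval of 6154 to 87210. A developmental factor was thus abundant in HH. NRIP1, a corepressor of nuclear receptors, had 17.8 and 26.4 CPM in HH and no count in TLOm1, at least 334-fold higher in HH. SERPINB6, an intracellular serine protease inhibitor, had 99.0 and 126 CPM in HH and no count in TLOm1, at least 1716-fold higher. ADAMDEC1, a secreted metalloprotease, UGT2B17, a steroid glucuronosyltransferase, and PRL, the hormone prolactin, had no count in TLOm1 either and were at least 843-, 821- and 750-fold higher in HH.

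The genes furthest toward TLOm1 included a ligand and several structural genes. CDC42EP1, an effector of the GTPase CDC42, had no count in HH and 33.6 and 26.8 CPM in TLOm1, at least 451-fold lower in HH. WNT5A, a ligand of noncanonical Wnt signaling, had 0.0411 and 0 CPM in HH, a single count, and 107 and 160 CPM in TLOm1, a ratio of 5843 with a counting interval of 1048 to 230810. FIGN, a microtubule-severing ATPase, had no count in HH and 35.6 and 35.4 CPM in TLOm1, at least 527-fold lower in HH. ERC2, a scaffold of the presynaptic active zone, had no count in HH and 25.0 and 48.3 CPM in TLOm1, at least 532-fold lower in HH. The libraries of the lines did not overlap for any of these genes. PALMD, a paralemmin relative, EMILIN2, an extracellular matrix glycoprotein, OCA2, a melanosomal transporter, ITGA3, an integrin chain, and GLI3, a zinc finger factor of Hedgehog signaling, also had no count in HH, with lower bounds of 362-, 295-, 297-, 219- and 205-fold. In absolute terms PKM2, the name in these files of the pyruvate kinase gene PKM, was among the 8 genes with the largest gaps, with 2467 and 2380 CPM in HH, against 7014 and 6337 CPM in TLOm1 (log2 fold change -1.43, SE 0.07). AHNAK, a large scaffold protein, had 2738 and 2690 CPM in HH and 870 and 714 CPM in TLOm1 (1.82, SE 0.08), the other way round. With PF382 added to the fit the AHNAK difference was 1.82 and stayed called, at a higher adjusted p (0.0153, against 1.42e-09 without PF382). Leaving any 1 library out of the fit with PF382 gave 1.51 to 2.10, not called.

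With on taken as at least 5 CPM in both libraries of a line and silent as under 0.3 CPM in both, 158 genes were on in HH and silent in TLOm1, and 244 were on in TLOm1 and silent in HH. No count at all was found in the silent line for 33 of the 158 and 44 of the 244. These classes were defined from the same values, so no test was made of them. The fitted fold change of a gene near 0 in a line moves with single libraries, as for HAND1, at 13.16 to 17.66 on the log2 scale when 1 library was left out, and its direction did not. Most stayed on with drug, 142 of 158 in every treated HH library and 223 of 244 in every treated TLOm1 library. The silent line stayed under 0.3 CPM in all its treated libraries for 88 and 146 of them, and reached 1 CPM or more in at least 1 treated library for 16 and 29. HAND1 reached up to 9.27 CPM in treated TLOm1. In treated HH, CCNA1, a germline cyclin, reached 66.3 CPM (median 12.1 CPM), against 0.206 and 0.149 CPM untreated, and so exceeded the lowest treated TLOm1 level of 9.26 CPM. GTSF1 and MAGEB2, both germline genes, reached 19.1 and 13.1 CPM in treated HH. In PF382, 68 of the 158 and 96 of the 244 were also under 0.3 CPM in both untreated libraries, and 51 and 86 at 5 CPM or more in both.

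Since both drugs act on DNA methylation, the CG dinucleotides upstream of on/off genes were counted in the 250 bases before 1 transcription start per gene (RefSeq, GRCh38.p14). A gene can have other starts, whose windows were not examined and may differ in CG. For 110 of the 158 genes on in HH the median was 17 CG, and 67.3% had 10 or more. For 163 of the 244 genes on in TLOm1 the median was 19 and the share 74.8%. The 8392 other expressed genes had a median of 21 and 87.5%. The remaining on/off genes had no window counted, and these values may not hold for them. Methylation was not measured in these libraries, and the counts describe sequence alone. Shown are the windows of MAOB (chrX:43882451-43882700, minus strand, 21 CG) and HAND1 (chr5:154478228-154478477, minus strand, 16 CG), which lead the HH genes. The window of ABCG2 (chr4:88231627-88231876, minus strand, 2 CG), a drug efflux pump on in HH, follows. Then come those of CCNA1 (chr13:36431705-36431954, plus strand, 31 CG), silent in untreated HH and present in treated HH, and SLAMF6 (chr1:160523256-160523505, minus strand, 1 CG), a lymphocyte receptor that stayed silent in HH with drug. All windows run 5′ to 3′ and end at the base before the start used, and capitals mark each CG.
MAOB: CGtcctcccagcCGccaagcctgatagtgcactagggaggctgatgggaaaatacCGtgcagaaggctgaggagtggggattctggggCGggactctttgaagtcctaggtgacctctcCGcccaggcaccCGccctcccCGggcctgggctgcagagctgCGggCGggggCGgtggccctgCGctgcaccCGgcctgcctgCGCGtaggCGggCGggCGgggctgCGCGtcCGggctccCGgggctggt
HAND1: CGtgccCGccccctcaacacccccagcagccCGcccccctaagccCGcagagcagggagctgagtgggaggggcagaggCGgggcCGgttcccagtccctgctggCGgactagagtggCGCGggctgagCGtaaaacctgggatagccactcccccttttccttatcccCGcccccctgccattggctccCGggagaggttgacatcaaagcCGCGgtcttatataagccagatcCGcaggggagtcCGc
ABCG2: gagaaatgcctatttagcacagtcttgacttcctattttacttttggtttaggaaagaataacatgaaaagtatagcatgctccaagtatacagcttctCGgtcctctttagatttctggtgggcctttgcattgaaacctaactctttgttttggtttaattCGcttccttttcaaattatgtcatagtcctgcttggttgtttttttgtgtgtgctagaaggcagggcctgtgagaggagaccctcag
CCNA1: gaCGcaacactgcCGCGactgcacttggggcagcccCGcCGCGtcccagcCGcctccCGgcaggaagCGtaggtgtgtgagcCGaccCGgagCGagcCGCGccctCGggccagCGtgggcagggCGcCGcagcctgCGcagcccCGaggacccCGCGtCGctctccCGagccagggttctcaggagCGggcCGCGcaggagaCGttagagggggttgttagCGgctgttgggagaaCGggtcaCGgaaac
SLAMF6: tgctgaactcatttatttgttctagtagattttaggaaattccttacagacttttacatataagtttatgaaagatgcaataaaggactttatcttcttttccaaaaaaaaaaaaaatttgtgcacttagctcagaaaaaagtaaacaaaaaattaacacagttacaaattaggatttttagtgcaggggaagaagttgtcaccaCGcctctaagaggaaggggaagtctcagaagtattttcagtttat
Windows with 10 or more CG (MAOB, HAND1, CCNA1) and windows with fewer (ABCG2, SLAMF6) both occurred among the on/off genes. Only CCNA1, at 31 CG, was above the median of 21 of the other expressed genes. MAOB was at 21 and HAND1 at 16. ABCG2 had 18.0 and 18.3 CPM in HH and 0.122 and 0.185 CPM in TLOm1 (log2 fold change 6.88, SE 0.32), with at most 0.423 CPM in treated TLOm1. SLAMF6 had 0.0411 and 0.0497 CPM in HH and 84.3 and 85.5 CPM in TLOm1, and at most 0.0923 CPM in treated HH.

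Transcripts of some T-cell receptor components differed strongly between the lines, while others were expressed in both. CD3G and CD3D, chains of the receptor complex, and CD5, a surface inhibitor of receptor signaling, were present in HH and near 0 in TLOm1. CD3G had 17.3 and 22.4 CPM in HH, against 0.122 and 0.0463 CPM in TLOm1 (log2 fold change 7.77, SE 0.35, adjusted p = 1.08e-09). CD5 had 423 and 281 CPM in HH and 0.447 and 0.463 CPM in TLOm1 (9.62, SE 0.17, adjusted p = 1.37e-12). No library of HH came near one of TLOm1 for either gene. CD3D had 31.5 and 43.0 CPM in HH and 0.731 and 0.0463 CPM in TLOm1 (6.50, SE 0.68), and without the OLC library of TLOm1 the difference was 9.58 (adjusted p = 6.58e-14). CD3E, the epsilon chain, was expressed in both, at 80.9 and 120 CPM in HH and 39.9 and 33.5 CPM in TLOm1 (1.46, SE 0.22). CD247, the zeta chain, did not pass, with 129 and 105 CPM in HH and 141 and 132 CPM in TLOm1 (adjusted p = 0.0861), and neither did the kinase gene ZAP70, with 135 and 118 CPM and 107 and 134 CPM.

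Below the receptor, MALT1, a paracaspase on the path to NF-kappaB, had 70.7 and 70.3 CPM in HH, against 339 and 385 CPM in TLOm1 (log2 fold change -2.32, SE 0.09). PLCG1, the phospholipase that acts upstream of it, went the other way, at 220 and 213 CPM in HH and 51.3 and 53.4 CPM in TLOm1 (2.08, SE 0.09). THEMIS, an adaptor of T-cell selection, was nearly limited to HH, at 56.0 and 58.1 CPM against 0.325 and 0.139 CPM (7.91, SE 0.25). The transmembrane adaptors PAG1 and SIT1, which dampen receptor signals, were lower in HH, by log2 fold changes of -3.65 and -3.21. Of the 28 tested genes of the receptor complex and its proximal signaling, 12 were higher in HH, 9 higher in TLOm1 and 7 not called, and their median log2 fold change was 0.12, against 0.00 over all genes.

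Surface antigens and checkpoint receptors divided the lines, with a median absolute log2 fold change of 3.22 over 22 surface antigens and 2.34 over 16 checkpoint receptors, against 0.64 over all genes. Of the surface antigens 9 were higher in HH and 12 in TLOm1, and of the checkpoint receptors 8 and 4. TIGIT, an inhibitory receptor of T and natural killer cells, had 80.2 and 77.7 CPM in HH, against 0.325 and 0.231 CPM in TLOm1 (log2 fold change 8.14, SE 0.20, adjusted p = 7.05e-12). CD226, the activating receptor that shares ligands with TIGIT, had 45.7 and 47.0 CPM in HH and 1.22 and 0.787 CPM in TLOm1 (5.54, SE 0.21). TNFRSF25, a death receptor of lymphocytes, had 114 and 80.5 CPM in HH and 0.528 and 0.231 CPM in TLOm1 (7.999, SE 0.19). All 3 were thus at 1.22 CPM or less in TLOm1. SLAMF6, shown above by its upstream window, CD48, a ligand of SLAM family receptors, and the tetraspanin CD82 marked TLOm1 instead. The log2 fold changes were -4.20 for CD48 and -3.73 for CD82. CD44, a hyaluronan receptor picked here after its values were seen, had 255 and 349 CPM in HH and 0.528 and 0 CPM in TLOm1 (10.05, SE 0.64, adjusted p = 0.00464).

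**Figure D2:**
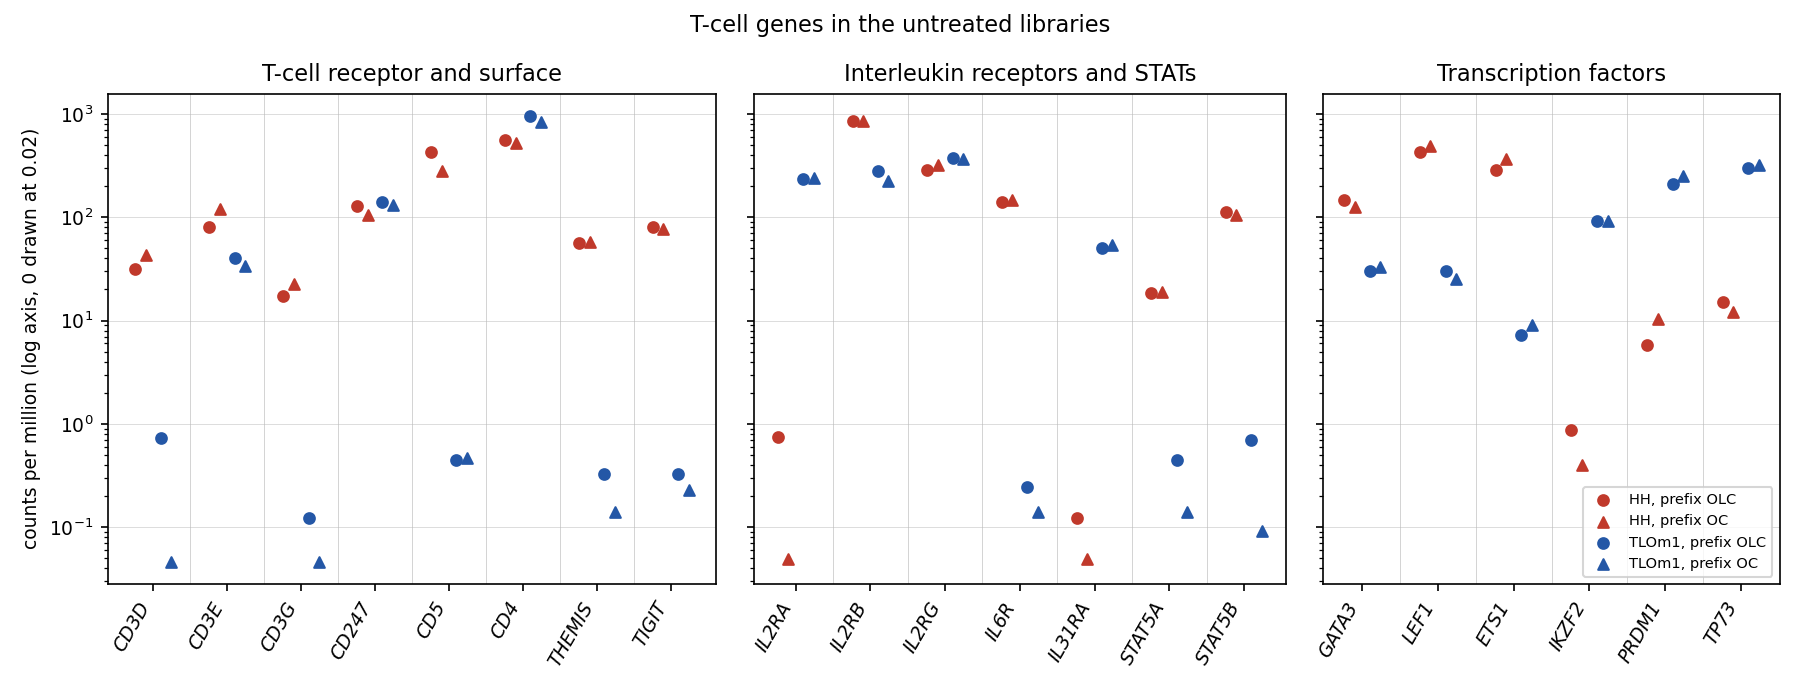
CPM on a log axis (0 is drawn at 0.02) for T-cell receptor and surface genes, interleukin receptors and STATs, and transcription factors in the untreated HH libraries (red) and TLOm1 libraries (blue), with circles for the OLC and triangles for the OC library. CD3G, CD5, THEMIS, TIGIT, IL6R and both STAT5 genes are under 1 CPM in TLOm1, and IL2RA, IL31RA and IKZF2 are under 1 CPM in HH.

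The interleukin receptors split in the same manner. IL2RA, whose product CD25 raises the affinity of the interleukin-2 receptor, was near absent from HH, while the shared chains IL2RB and IL2RG were expressed in both. IL2RA had 0.740 and 0.0497 CPM in HH, against 234 and 240 CPM in TLOm1 (log2 fold change -9.08, SE 0.46, adjusted p = 0.000583). IL2RB had 850 and 862 CPM in HH and 280 and 222 CPM in TLOm1 (1.81, SE 0.10), and IL2RG 289 and 319 CPM against 373 and 368 CPM (-0.25, SE 0.09). IL6R, the interleukin-6 binding chain, had 141 and 146 CPM in HH and 0.244 and 0.139 CPM in TLOm1 (9.51, SE 0.20, adjusted p = 2.53e-12). IL31RA, a receptor chain for the itch cytokine interleukin-31, had 0.123 and 0.0497 CPM in HH and 49.9 and 53.6 CPM in TLOm1 (-9.05, SE 0.28). In each of these receptors except IL2RB and IL2RG, 1 line was under 1 CPM in both libraries. IL27RA followed IL6R at 37.5 and 34.8 CPM in HH and 0.691 and 0.139 CPM in TLOm1. Of 25 tested cytokine receptors, 8 were higher in HH, 12 in TLOm1 and 5 not called. IL2RA, IL2RG, STAT3, STAT5B, CISH, IRF9, GATA3, RUNX1, TCF7, TOX, CDKN1A, CD7, NFKB2, RELA and RELB fall outside the naming rule and were chosen after their values were seen.

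Both STAT5 genes, neighbours that encode the transcription factors downstream of interleukin-2, were expressed in HH and nearly silent in TLOm1. STAT5B had 113 and 105 CPM in HH, against 0.691 and 0.0926 CPM in TLOm1 (log2 fold change 8.09, SE 0.33, adjusted p = 1.88e-06), and treated TLOm1 did not exceed 0.369 CPM. STAT5A had 18.5 and 18.7 CPM in HH and 0.447 and 0.139 CPM in TLOm1 (5.96, SE 0.32), with at most 0.328 CPM in treated TLOm1. The line with high IL2RA had the low STAT5 levels. PF382 expressed both, at 296 and 189 CPM for STAT5B and 73.1 and 55.2 CPM for STAT5A. Without the OLC library of TLOm1 the STAT5B difference was 9.95. CISH, a feedback inhibitor that STAT5 induces, and the kinase gene JAK2 were higher in HH, with log2 fold changes of 2.48 and 1.43. STAT3 did not pass, at -0.30. Of the 29 JAK, STAT and SOCS genes tested, 15 were higher in HH, 7 in TLOm1 and 7 not called, with a median of 0.38.

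Chemokine receptors separated markers that are both associated with adult T-cell leukemia. CCR4, a skin-homing receptor, was expressed in both lines and higher in HH, at 331 and 489 CPM against 92.9 and 116 CPM in TLOm1 (log2 fold change 1.99, SE 0.10). CCR8 had 0.123 and 0 CPM in HH, 3 counts, and 99.8 and 116 CPM in TLOm1, a ratio of 1589 with a counting interval of 543 to 7706. GPR183, an oxysterol-guided migration receptor, had 1.60 and 0.944 CPM in HH and 68.1 and 67.4 CPM in TLOm1 (-5.68, SE 0.19). CCL22, a ligand of CCR4, was on the HH side, at 75.7 and 95.2 CPM against 0.163 and 0.370 CPM (8.36, SE 0.21). CCR10, another skin-homing receptor, was low but lower in HH, at 0.123 and 0.149 CPM against 8.05 and 6.02 CPM. TNFRSF8, which encodes CD30, did not differ detectably, at 1302 and 1290 CPM in HH and 1443 and 1180 CPM in TLOm1, nor did the lymphoid factor IRF4, at 977 and 1272 CPM and 1066 and 1494 CPM. Both were also chosen after their values were seen. Over 29 genes of regulatory T cells and adult T-cell leukemia, 12 were higher in HH, 11 in TLOm1 and 6 not called. Over 21 genes of cutaneous T-cell lymphoma the counts were 8, 11 and 2. The median log2 fold changes were -0.15 and -0.36. The leukemia list summed to 5936 and 6472 CPM in HH and 5375 and 5686 CPM in TLOm1, and the lymphoma list to 1700 and 1999 CPM in HH and 1155 and 1204 CPM in TLOm1. Call counts, medians and sums thus did not all point to the same line for either list.

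T-cell transcription factors were exchanged between the lines. HH had more LEF1 and ETS1, factors of early and peripheral T cells, and more GATA3 and IKZF1, and TLOm1 more IKZF2 and PRDM1, which are known in regulatory and effector T cells. LEF1 had 433 and 492 CPM in HH, against 30.4 and 25.3 CPM in TLOm1 (log2 fold change 4.08, SE 0.12). ETS1 had 289 and 366 CPM in HH and 7.31 and 8.98 CPM in TLOm1 (5.36, SE 0.11, adjusted p = 2.53e-12). IKZF2, which encodes Helios, had 0.864 and 0.398 CPM in HH and 92.5 and 92.8 CPM in TLOm1 (-7.12, SE 0.21). None of these libraries overlapped between the lines. PRDM1, which encodes Blimp-1, had 5.76 and 10.3 CPM in HH and 212 and 249 CPM in TLOm1 (-4.85, SE 0.15). GATA3, the T helper 2 factor, had 147 and 126 CPM in HH and 30.0 and 32.6 CPM in TLOm1 (2.16, SE 0.11), and RUNX1 9.38 and 5.62 CPM in HH and 101 and 111 CPM in TLOm1 (-3.79, SE 0.21). TOX and TOX2, related factors, moved in opposite directions, with log2 fold changes of 3.88 and -3.69. With PF382 in the fit TOX2 stayed called (adjusted p = 0.0031). Leaving the OLC or the OC library of TLOm1 out of that fit gave -3.91 and -3.40, not called. TCF7, the partner of LEF1, had 117 and 140 CPM in HH and 3.45 and 0.185 CPM in TLOm1 and was not called (adjusted p = 0.122). Without the OLC library of TLOm1 its log2 fold change was 9.36 (SE 0.46, adjusted p = 3.51e-10), and in the treated pairs 9.80, with at most 0.410 CPM in treated TLOm1, while PF382 had 2536 and 1821 CPM. In all, 12 of 26 helper T-cell factors were higher in HH, 9 in TLOm1 and 5 not called.

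Several cell cycle inhibitor and stress-response genes were lower in HH. TP73, a transcription factor of the response to DNA damage, had 15.1 and 12.2 CPM in HH, against 300 and 320 CPM in TLOm1 (log2 fold change -4.47, SE 0.12). CDKN1A, the cell cycle inhibitor p21, had 9.62 and 21.7 CPM in HH and 161 and 191 CPM in TLOm1 (-3.54, SE 0.28, adjusted p = 0.00126). HH was thus below TLOm1 in both libraries for both genes. Counts per gene do not tell transcript forms of TP73 apart, so they do not show what its product does in either line. With drug, TP73 reached 22.3 to 79.2 CPM in HH and 301 to 396 CPM in TLOm1 (-2.95). Among further stress-response genes, PHLDA3 and GADD45G were at or under 0.123 CPM in HH and at 14.9 CPM or more in TLOm1, with log2 fold changes of -7.35 and -7.85, and the death receptor FAS had -2.29. Of the 34 cell cycle inhibitors and stress-response genes, 10 were higher in HH, 16 in TLOm1 and 8 not called, with a median of -0.33, and among those higher in HH were CDKN1B, RBL2 and ZMAT3. Of 22 tested genes of the BCL2 and death receptor family, 5 were higher in HH and 11 in TLOm1, among them BCL2L1, an anti-apoptotic gene, at 50.0 and 58.2 CPM in HH and 181 and 213 CPM in TLOm1 (-1.83, SE 0.09). TNFRSF10A, a TRAIL receptor, had 1 count in HH and 9.18 and 8.10 CPM in TLOm1, a ratio of 386 with a counting interval of 68.8 to 15265. MCL1, another survival gene, was higher in HH (0.72), and without the prefix as a block its adjusted p was 0.0784.

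Transcripts of MHC class II presentation genes were mostly lower in HH, and those of class I genes were mixed. Of 20 class II genes tested, 2 were higher in HH, 14 in TLOm1 and 4 not called, with a median log2 fold change of -0.83. CD74, the invariant chain, had 3285 and 4376 CPM in HH, against 7636 and 8540 CPM in TLOm1 (-1.06, SE 0.08, adjusted p = 1.12e-07). With PF382 added to the fit and every library kept, CD74 was at -1.05 and not called (adjusted p = 0.203). Leaving 1 library out of that fit gave -0.68 to -1.48, also not called. HLA-DRB1 had 322 and 382 CPM in HH and 1956 and 1811 CPM in TLOm1 (-2.39, SE 0.10), and HLA-DQA1 180 and 244 CPM against 922 and 977 CPM (-2.15, SE 0.10). Class II expression was present in both lines. LGMN, a lysosomal protease, was 1 of the 2 genes higher in HH, at 242 and 378 CPM against 108 and 152 CPM. It too was not called once PF382 was added (1.28, adjusted p = 0.204) or 1 library then left out (0.70 to 1.72). For class I, HLA-B had 1423 and 1863 CPM in HH and 767 and 767 CPM in TLOm1 (1.12, SE 0.10). It stayed called with PF382 in the fit (adjusted p = 0.0232). Leaving the OLC or the OC library of TLOm1 out of that fit gave 1.06 and 1.22, not called. B2M, the partner chain of HLA-B, had 1007 and 1523 CPM in HH and 2519 and 2991 CPM in TLOm1 (-1.11, SE 0.09). NLRC5, the class I transactivator, was higher in HH, at 206 and 221 CPM against 55.6 and 38.3 CPM (2.24, SE 0.16). Of 25 class I genes, 10 were higher in HH, 7 in TLOm1 and 8 not called. HLA genes are near-identical copies with alleles that differ between people, so their counts are uncertain.

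Many interferon-stimulated genes and nucleic acid sensors were lower in HH. Of 37 tested interferon-stimulated genes, 9 were higher in HH and 21 in TLOm1 (median log2 fold change -0.66), and of 25 sensing genes 5 and 17 (median -0.60), against 33.1% and 32.8% of all genes. OAS3, a sensor of double-stranded RNA, had 0.411 and 0.149 CPM in HH, against 47.3 and 37.5 CPM in TLOm1 (-7.15, SE 0.25). EIF2AK2, the RNA-dependent kinase PKR, had 1.11 and 2.19 CPM in HH and 34.8 and 34.9 CPM in TLOm1 (-4.41, SE 0.23). XAF1, a pro-apoptotic interferon target, had 0.617 and 0.795 CPM in HH and 39.5 and 36.0 CPM in TLOm1 (-5.71, SE 0.22). These 3 genes were low in HH with drug as well, at most 1.37, 3.30 and 2.04 CPM. TMEM173, which encodes the adaptor STING, had 115 and 170 CPM in HH and 515 and 756 CPM in TLOm1 (-2.13, SE 0.08). It stayed called with PF382 in the fit (adjusted p = 0.0121). Leaving 1 library out of that fit gave -1.81 to -2.47, not called. IFIT5, an RNA-binding interferon target, had 2 counts in HH and 13.6 and 19.4 CPM in TLOm1. The list did not move as 1 block, since IFI44 and IFI44L were higher in HH, at 12.01 and 18.8 CPM against 2.52 and 2.41 CPM and at 5.92 and 8.20 CPM against 0.488 and 0.0926 CPM, and IRF9 was not called. IRF3, a factor that the sensors activate, was higher in HH (0.93, SE 0.10).

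HOX and germline genes lay mostly on the TLOm1 side. None of the 15 tested HOX genes was higher in HH, 13 were higher in TLOm1 and 2 not called, with a median log2 fold change of -3.36. HOXA7 had 0.0823 and 0 CPM in HH, 2 counts, and 23.2 and 21.7 CPM in TLOm1, a ratio of 500.4 with a counting interval of 138 to 4138. Of the 39 HOX genes listed, 25 were under 1 CPM in all 4 libraries. HOXB7 was expressed in both, at 5.47 and 4.42 CPM in HH and 23.9 and 19.4 CPM in TLOm1 (-2.10, SE 0.17). Of 17 tested cancer-testis and germline genes, 3 were higher in HH and 12 in TLOm1, with a median of -2.45. MAGEB2, a cancer-testis antigen, had 0.165 and 0.0497 CPM in HH, against 70.0 and 68.3 CPM in TLOm1 (-9.17, SE 0.26), and with drug a median of 3.85 CPM in HH against 62.7 CPM in TLOm1 (-3.99). GTSF1, a piRNA pathway gene described in cutaneous T-cell lymphoma, had 0.288 and 0.0994 CPM in HH and 80.2 and 69.7 CPM in TLOm1 (-8.48, SE 0.23), with -3.32 in the treated pairs. REC8, a meiotic cohesin, had 6.46 and 6.66 CPM in HH and 128 and 131 CPM in TLOm1 (-4.27, SE 0.12), and SMC1B, another meiotic cohesin gene, was the other way round at 4.57 and 6.21 CPM against 0.163 and 0.231 CPM (4.77, SE 0.40).

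Genes that handle cytidine analogs, the drugs of the series, and antifolates, which no library received, differed in both directions. They were called about as often as other genes, at 66.7% and 65.0%, against 65.9% of all genes. For cytidine analogs, SLC29A1, the nucleoside transporter, had 122 and 88.9 CPM in HH, against 55.4 and 44.5 CPM in TLOm1 (log2 fold change 1.10, SE 0.10), and DCTD, a deoxycytidylate deaminase, 50.6 and 43.3 CPM against 139 and 133 CPM (-1.50, SE 0.10). SAMHD1, a nucleotide hydrolase, was lower in HH (-1.34). Of 18 such genes, 5 were higher in HH, 7 in TLOm1 and 6 not called, with a median absolute log2 fold change of 0.51 against 0.64 over all genes. Of 36 genes of DNA methylation and chromatin, 17 were higher in HH, 7 in TLOm1 and 12 not called. TET2, which oxidizes methylated cytosine, had 232 and 245 CPM in HH and 58.6 and 74.5 CPM in TLOm1 (1.88, SE 0.10). IDH2, a mitochondrial dehydrogenase, had 79.7 and 68.5 CPM in HH and 3.58 and 2.04 CPM in TLOm1 (4.76, SE 0.17), and HDAC9, a histone deacetylase, 0.946 and 0.398 CPM against 69.2 and 60.9 CPM (-6.53, SE 0.22). Of 20 antifolate genes 7 were higher in HH, ABCG2 among them, and 6 in TLOm1. GGH, which removes polyglutamate from folates, was higher in HH (1.54). Among the remaining lists, NF-kappaB genes counted 12 higher in HH, 9 in TLOm1 and 14 not called of 35, AP-1 and immediate-early factors 10, 9 and 8 of 27, adhesion genes 9, 10 and 8 of 27, chemokine genes 9, 8 and 4 of 21, cytokines 6, 5 and 4 of 15, cyclins and their kinases 7, 10 and 10 of 27, NOTCH and early T-cell oncogenes 3, 4 and 3 of 10, and cytotoxic genes 3, 2 and 3 of 8. Both tested GIMAP genes, lymphocyte GTPases, were higher in TLOm1, with no count of GIMAP6 in HH and 22.6 and 25.2 CPM in TLOm1 (at least 353-fold lower in HH).

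NFKB1, which encodes the p50 subunit of NF-kappaB, was among the abundant transcripts of HH, and so were the genes beside it. NFKB1 had 2064 and 1924 CPM in HH, against 111 and 117 CPM in TLOm1 (log2 fold change 4.17, SE 0.09, adjusted p = 2.53e-12), and PF382, at 36.1 and 27.1 CPM, was also far below HH. The neighbour UBE2D3, a ubiquitin-conjugating enzyme, had 2927 and 3076 CPM in HH and 279 and 317 CPM in TLOm1 (3.37, SE 0.08). SLC39A8, a zinc transporter on the other side of NFKB1, had 356 and 390 CPM in HH and 0.284 and 0.231 CPM in TLOm1 (10.49, SE 0.17), with 69.5 and 87.6 CPM in PF382. From SLC39A8 to GSTCD, all 14 consecutive tested genes were higher in HH, by 1.42 (CENPE) to 10.49. The group holds MANBA, CISD2, SLC9B1, SLC9B2, BDH2, CXXC4, TET2, PPA2 and INTS12, and the genes from NFKB1 to BDH2 lay between 3.37 and 4.59. Just before SLC39A8 the differences were smaller, with PPP3CA at 0.71 and H2AFZ, DNAJB14 and LAMTOR3 not called. GSTCD, at 1.62, was the last gene looked at, so where the group ends on that side was not determined. The order is that of the RefSeq table, whose build differs from that of the files, and the group was noticed after its values were seen. In the treated pairs NFKB1 had 4.27, BDH2 5.09 and UBE2D3 3.31. DNA copy number was not measured here, and its part in the result was not tested. Other NF-kappaB subunits did not share the gap, with RELA and RELB not called and NFKB2 at -0.45.

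**Figure D3:**
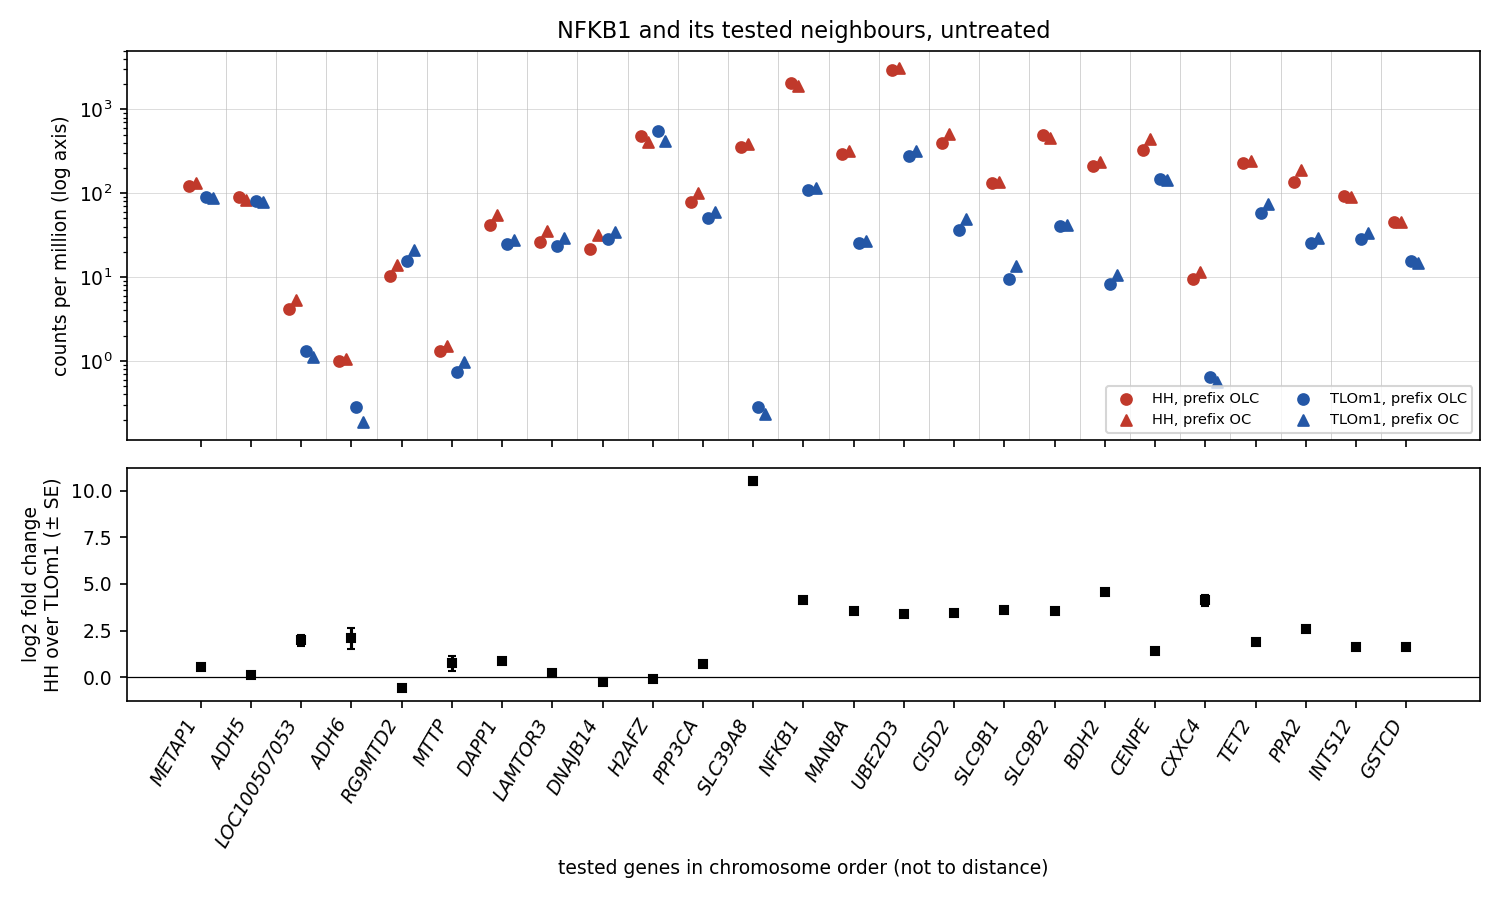
CPM on a log axis (upper panel; HH red, TLOm1 blue, circles OLC, triangles OC) and log2 fold change of HH over TLOm1 with its SE (lower panel) for 25 tested genes around NFKB1 in chromosome order. The fold changes stay between -0.55 and 2.10 up to PPP3CA and step up at SLC39A8. They remain above 1 as far as GSTCD, the last gene shown.

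Whole chromosomes also differed. Of the 415 tested genes on the chromosome that carries B2M, 27 were higher in HH (6.51%) and 355 higher in TLOm1 (85.5%), with a median log2 fold change of -1.47. On the chromosome of MYC, 318 of 441 genes were higher in HH (72.1%) and 51 in TLOm1 (11.6%), with a median of 0.75. The chromosome of HLA-B had 383 of 705 genes higher in HH (54.3%) and 129 in TLOm1 (18.3%), with a median of 0.62. On the other 20 chromosomes compared the medians ran from -0.27 to 0.23, the share higher in HH from 23.8% to 43.2% and the share higher in TLOm1 from 24.8% to 46.0%. In the treated pairs the 3 medians were -1.42, 0.76 and 0.60. B2M itself and PKM2 lie on the first of these chromosomes. PDIA3, a class I loading chaperone on it as well, had 139 and 141 CPM in HH against 578 and 530 CPM in TLOm1 (-1.95, SE 0.09). MYC, a growth regulator on the next, had 441 and 448 CPM in HH against 173 and 155 CPM in TLOm1 (1.47, SE 0.09). These genes had the sign of the median of their chromosome. The 27 genes higher in HH on the first chromosome and the 51 higher in TLOm1 on the next did not. Whether the shift of a chromosome accounts for any single gene was not tested. The 3 chromosomes were picked after the values were seen, and DNA was not measured.

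**Figure D4:**
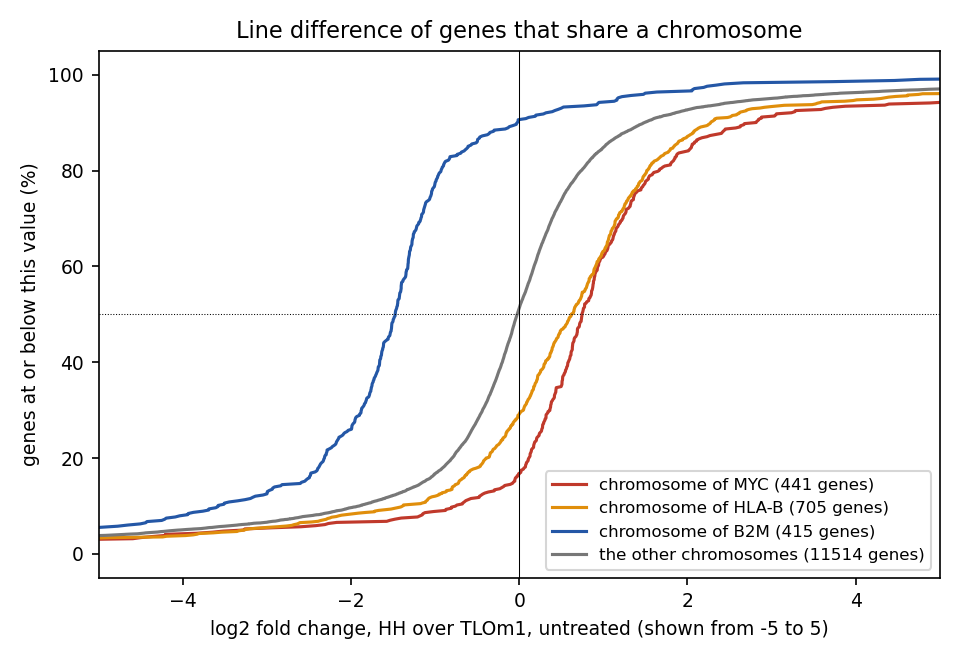
Cumulative share of tested genes (y axis, %) at or below each log2 fold change of HH over TLOm1 (x axis, shown from -5 to 5) for the chromosomes of MYC, HLA-B and B2M and for 11514 genes of the other chromosomes. The curve of the B2M chromosome crosses 50% at -1.47 and those of the MYC and HLA-B chromosomes at 0.75 and 0.62, while the other genes cross near 0.

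Some silent genes came in runs, while most lay outside any run. Among 12119 genes put in chromosome order, 449 were silent in HH and 334 in TLOm1 while at 1 CPM or more in both libraries of the other line, and 16 runs of 3 or more neighbours shared this state, 9 silent in TLOm1 and 7 silent in HH. Of the 9, 6 were made of zinc finger genes alone, the longest being ZNF566, ZNF260, ZNF529, ZNF382 and ZNF567. ZNF700 had 14.7 and 17.4 CPM in HH and no count in TLOm1, as had its neighbours ZNF440 and ZNF823. Zinc finger genes of this kind encode DNA-binding proteins, many of which silence transposable elements. Other runs silent in TLOm1 were SERPINB1, SERPINB9 and SERPINB6, which encode intracellular protease inhibitors, and UGT2B17, UGT2B15 and UGT2B7, steroid and drug glucuronosyltransferases. SERPINB1 had 46.8 and 67.5 CPM in HH and 0.163 and 0 CPM in TLOm1, and SERPINB9, the inhibitor of granzyme B, 14.4 and 22.0 CPM against a single count. UGT2B genes are near-identical copies, so reads may be split among them.

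The runs silent in HH held CACNA2D3, WNT5A and ERC2, then MECOM, TERC and ARPM1, SNTB1, HAS2 and HAS2-AS1, KANK1, DMRT1 and DMRT2, CCNB3, GSPT2 and MAGED1, RASSF4 with a pair of open reading frames, and ZNF280B with PRAME and GNAZ. SNTB1, a syntrophin of the membrane skeleton, had 0.288 and 0.298 CPM in HH, against 103 and 121 CPM in TLOm1. MAGED1, a MAGE family gene expressed in many tissues, had 0.123 and 0 CPM in HH and 57.5 and 50.9 CPM in TLOm1. MECOM, a zinc finger oncogene of myeloid leukemia, had 0.165 and 0.0994 CPM in HH and 11.5 and 12.2 CPM in TLOm1. TERC, its neighbour in the run, was low in both lines, at 0.288 and 0.199 CPM in HH and 1.544 and 1.203 CPM in TLOm1. It had counts in HH below the limit of 0.3 CPM, so these values do not show that HH lacks it. Whether the RNA selection of the libraries kept TERC in full was not tested. HAS2 and HAS2-AS1 overlap, and reads of the pair can be told apart only if the counting used strand, which is not given in the sources used here. Over all 374 tested genes with a ZNF number, 158 were higher in HH (42.2%), 87 in TLOm1 (23.3%) and 129 not called. Their median log2 fold change was 0.24. Of all tested genes 33.1% were higher in HH and 32.8% in TLOm1, with a median of 0.00. The limits used for the runs were 1 CPM or more in both libraries of a line and under 0.3 CPM in both of the other. By these limits, 42 ZNF genes were expressed in HH alone and 15 in TLOm1 alone. Among the 12119 genes put in chromosome order the numbers were 334 and 449. Of the called ZNF genes, 224 were called in the same direction in the treated pairs.

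**Figure D5:**
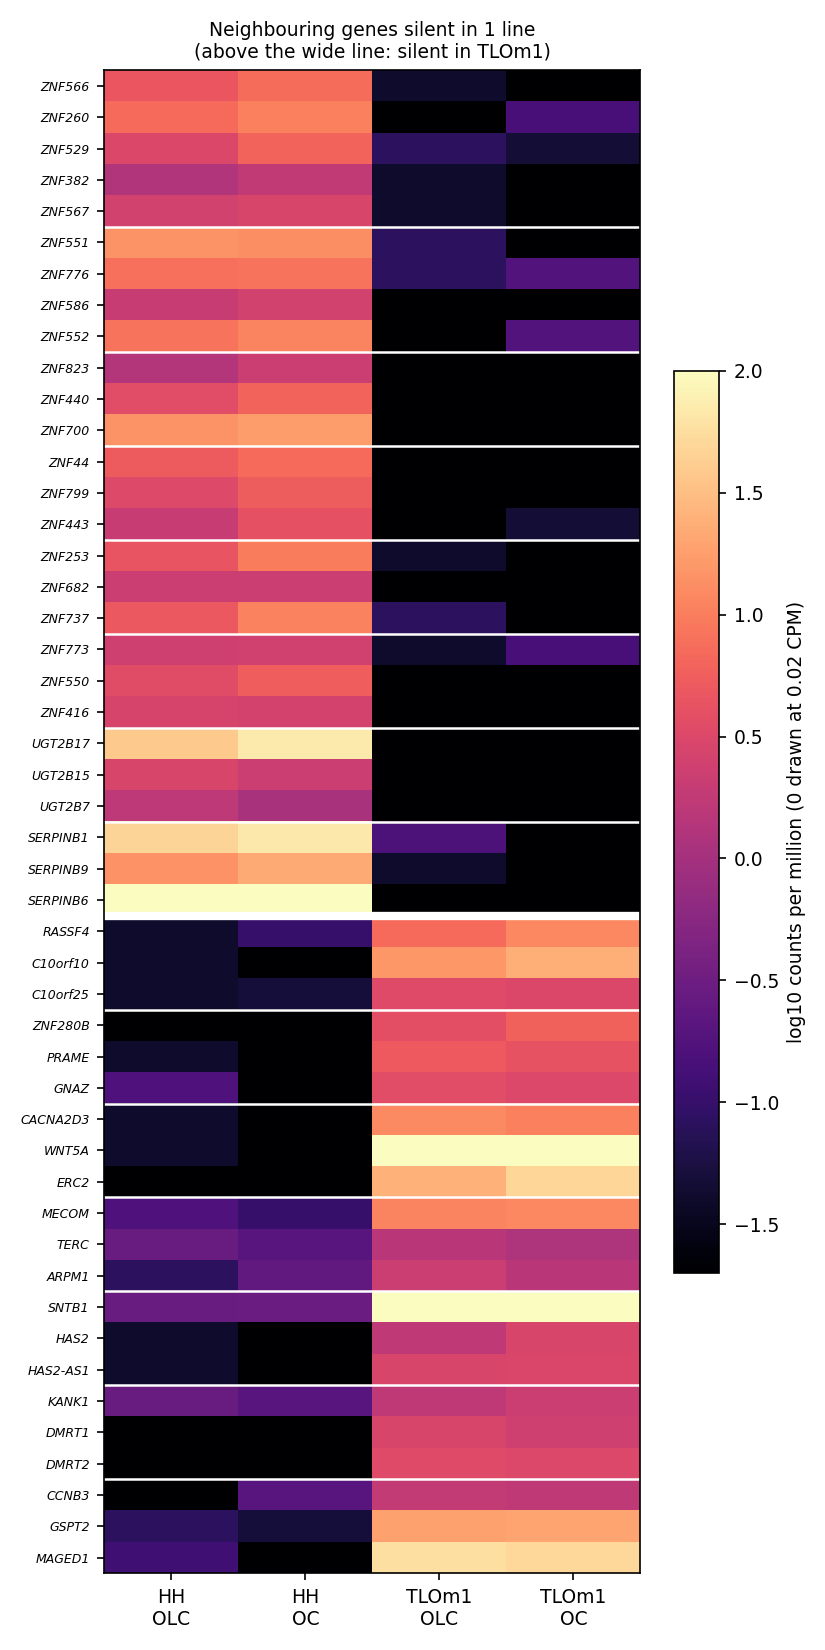
Log10 CPM (colour, 0 drawn at 0.02 CPM, brightest at 2 or more) of the genes of 15 of the 16 runs, 1 row per gene, in the 2 untreated HH libraries (left columns) and the 2 TLOm1 libraries (right columns), with white lines between runs. The rows above the wide line are dark in TLOm1 and those below it dark in HH, in both libraries of the line.

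The difference between the lines seldom changed with drug by a margin that the test could call. The interaction of line and treated state, over the 4 untreated and 10 treated libraries, called 2 of 14246 genes (0.014%) with edgeR, while 1679 had an unadjusted p under 0.05, DESeq2 called 162 and limma voom 0. Without the pair at decitabine 5 nM edgeR called 72, and without that at 25 nM 0. GALNT5, a glycosyltransferase, had 1.40 and 1.09 CPM in untreated HH, against 5.00 and 2.68 CPM in untreated TLOm1 (log2 fold change -1.57, SE 0.32), and medians of 30.7 CPM in treated HH and 4.87 CPM in treated TLOm1 (2.37). With PF382 in the fit its untreated difference stayed called (adjusted p = 0.00622). It was not called when the OLC library of HH or of TLOm1 was then left out (-1.26 and -1.25). ARHGAP9, a GTPase-activating protein of blood cells, had 0.0411 and 0.149 CPM in untreated HH and 8.86 and 15.6 CPM in untreated TLOm1, and medians of 0.782 CPM in treated HH and 7.69 CPM in treated TLOm1. TMEM119, a membrane protein known from microglia and bone cells, had 1.03 and 0.746 CPM in untreated HH and 5.24 and 6.71 CPM in untreated TLOm1 (-2.68, SE 0.32), and medians of 1.09 CPM in treated HH and 154 CPM in treated TLOm1 (-6.54), without passing the interaction test (adjusted p = 0.126).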

How the data were processed

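RNA-seq was run on 24 libraries of 3 cell lines. The authors deposited 1 table of raw read counts per gene and library, with 25559 genes each. STAR, limma, DESeq2 and the build GRCh37.p2 stand in the submitters' processing notes. How reads were assigned to genes, and with which annotation, is not given in the sources used here. Of the molecule the labels say polyA RNA, yet they also describe rRNA-depleted RNA and a stranded mRNA kit. A publication supplied with the series does not describe these libraries and served for style alone.

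Groups came from sample titles. Counts of the 4 untreated HH and TLOm1 libraries were tested with edgeR 4.0.16 in R 4.3.3 (quasi-likelihood F test, TMM, robust fit, filterByExpr with a minimum count of 10 and a minimum total of 15, title prefix as a block, Benjamini-Hochberg adjustment over all tested genes, threshold 0.05). The same test was run on the 5 treated pairs with condition as a block, and on 14 libraries for the interaction of line and treated state. The prefix comes from the titles, and the OLC minus OC deviations of HH and TLOm1 correlated over genes (r = 0.445). Counting intervals are exact at 95%, and a bound against a line with no count uses 3 counts over the line's 2 libraries. Alternatives were DESeq2 1.42.0, DESeq2 size factors, limma voom (limma 3.58.1), no filter, glmTreat, no block, a fit with PF382, and each library or treated pair left out. Fits were tested on simulated data. Tables were joined with Python 3.11.15, numpy 2.4.6, pandas 2.3.3 and scipy 1.17.1.

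The named genes are the 15 of largest fold change each way with at least 10 CPM in the higher line, the 8 of largest CPM difference, up to 4 of smallest adjusted p each way per list, all mature T-cell markers, members of silent runs, and the 8 of smallest interaction p, without pseudogenes and unnamed loci. A name ending in P and a number was passed over only where RefSeq calls it a pseudogene or holds no entry, a reading set after the values were seen. The comparison, its members and the lists were chosen with earlier results of these data known. The upstream windows are RefSeq GRCh38.p14 sequence and not the build of the counts. Some genes and 1 silent run are not reported here.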

Additional observations from a re-analysis of the deposited data

Results flagged for a closer look

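For 2 genes the difference between HH and TLOm1 was not the same with and without drug, by the edgeR test of the interaction of line and treated state over 14 libraries. For GALNT5 the log2 fold change of HH over TLOm1 was 3.947 higher with drug than without (SE 0.37, adjusted p = 0.0114), at 2.37 in the treated pairs and -1.57 in the untreated libraries. For ARHGAP9 it was 3.572 higher with drug (adjusted p = 0.049), at -3.37 in the treated pairs and -6.94 in the untreated libraries, where HH had 1 and 3 counts. No other gene of the 14246 tested passed with edgeR, and the count depends on single treated pairs, as given below.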

How the results depend on the processing

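Counts of genes called without drug kept within 1.5 times in most alternatives. They were 3575 higher in HH and 3681 in TLOm1 with DESeq2, 4609 and 4705 with DESeq2 size factors, 4794 and 4732 with limma voom, 4849 and 4903 without the filter, and 4286 and 4353 with PF382 in the fit. Against a 2-fold difference (glmTreat) they were 1695 and 1966. Without the title prefix as a replicate block they were 3378 and 3458, and 12 of 308 named genes lost their call. With PF382 added and every library kept, 5 of 307 named genes lost theirs. Leaving out 1 library, in a fit over the 3 lines that assumes a lone library to vary like the others, gave 3143 to 3405 higher in HH and 3325 to 3560 in TLOm1, and 19 to 21 named genes lost their call. The treated pairs gave 5065 to 5920 and 5170 to 6449 over the alternatives. The interaction called 7 genes without the filter, 162 with DESeq2, 0 with limma voom and 0 to 72 with 1 treated pair left out. In the treated pairs the log2 fold change turned for CTSW (1.80), GALNT5 (2.37), GRIN1 (-0.97), RAB37 (1.29) and RAG1 (0.23). RAB37 was at 0.061 without the OLC library of HH and -1.29 without its OC library. The causes were not tested. The scaling moved the median of all genes by under 0.1 on the log2 scale. With 2 libraries per line, small differences in weakly expressed genes cannot be called, and CPM near that of 3 counts cannot be told from 0.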
